A study of Mus musculus with 6 samples.

Results

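This report describes the constant genes of the T cell receptor beta chain, Trbc1 and Trbc2, and the genes of the CD3 signalling chains, Cd3d, Cd3e, Cd3g and Cd247, in cultured lung group 2 innate lymphoid cells (ILC2s). The members were chosen by name, 6 of the 18122 genes in the deposited table, and all 6 passed the filter on low counts. RNA was measured in 3 libraries of ICOS KO cells, whose genotype label is C.129S4-Icostm1Shr/J, and in 3 libraries of wild-type (WT) cells, whose genotype label is BALB/C BYJ. Icos encodes a costimulatory receptor of T cells and ILC2s. The groups carry different strain names as well as a different Icos allele, and effects of strain and allele cannot be told apart. All libraries came from mouse lung ILC2s that had been sorted and then cultured. Age, sex and culture condition are not in the labels. Nor is it stated if libraries of a group stem from separate mice or cultures, so a p-value here reflects library-to-library spread, possibly technical spread alone. The question asked of these genes was whether their transcripts behaved as transcripts of the ILC2s or as carry-over from T cells.

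In a T cell, a receptor with an alpha and a beta chain, or with a gamma and a delta chain, recognises antigen. Its short cytoplasmic tails carry no signal, so it is assembled with CD3 gamma, delta and epsilon chains and with CD3 zeta, the product of Cd247, whose cytoplasmic motifs (ITAMs) are phosphorylated by Lck and then bind ZAP-70. ILC2s have no surface T cell receptor, but they come from a lymphoid precursor close to T cells, and transcripts of T cell receptor constant genes and of CD3 genes have been described in innate lymphoid cells. The CD3 zeta chain also serves other receptors, among them activating receptors of natural killer (NK) cells.

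The beta constant genes lie beside each other on the plus strand of chromosome 6 (GRCm38), Trbc1 at 41538218 to 41539881 and Trbc2 at 41546730 to 41548352, 6848 bases apart. Their first coding exons differed at 1 of 375 bases (99.73% identical), and the remaining 143 coding bases differed at 22 positions (84.62% identical). The stretch that holds every coding difference, coding bases 241 to 518 counted from the start of the first constant exon, is printed here. Within the coding part, it is the sequence by which reads of the genes can be told apart. Exon bases outside the coding part were not compared. Capitals mark the 23 coding bases at which Trbc1 and Trbc2 differ.
Trbc1: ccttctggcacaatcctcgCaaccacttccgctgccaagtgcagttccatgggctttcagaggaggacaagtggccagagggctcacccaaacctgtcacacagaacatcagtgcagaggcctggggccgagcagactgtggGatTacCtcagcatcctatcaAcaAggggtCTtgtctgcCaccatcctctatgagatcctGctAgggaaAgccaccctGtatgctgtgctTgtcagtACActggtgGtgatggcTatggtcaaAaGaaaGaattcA
Trbc2: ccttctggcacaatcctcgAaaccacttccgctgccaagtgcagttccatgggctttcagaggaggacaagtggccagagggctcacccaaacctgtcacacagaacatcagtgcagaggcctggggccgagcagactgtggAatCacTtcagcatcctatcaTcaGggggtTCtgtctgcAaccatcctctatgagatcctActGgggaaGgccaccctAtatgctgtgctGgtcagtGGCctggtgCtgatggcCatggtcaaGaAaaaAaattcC
Reads that fall in the part of the first exon without a capital fit both genes, and how such reads were assigned is not stated, so the split between Trbc1 and Trbc2 is uncertain. Their sum does not depend on that split, though it would miss such reads if they were left uncounted.

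The targeted gene and the cell type markers were read first. Levels are TMM-normalised CPM, that is, estimated counts relative to the scaled total of their library. Icos stood at 140, 170 and 161 CPM in the ICOS KO libraries and at 434, 462 and 502 CPM in the WT libraries, lower in the ICOS KO libraries but not absent. Totals were 13738062 to 15543034 estimated counts in ICOS KO libraries and 14976130 to 18736474 in WT libraries. The ILC2 markers Gata3 and Il5 were abundant in both groups, Gata3 at 753 ± 53.1 CPM in ICOS KO and 868 ± 51.0 CPM in WT, and Il5 at 6048 ± 309 CPM in ICOS KO and 6460 ± 533 CPM in WT (SD, n = 3 each). The floors of 3 reads used here cover counting error only, since the cDNA was amplified and no molecular identifiers are mentioned.

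Both beta constant genes were higher in ICOS KO ILC2s, the CD3 epsilon gene was lower, and the other CD3 genes did not pass the test. With edgeR's quasi-likelihood test and a Benjamini-Hochberg adjusted p under 0.05, 2 of the 6 members were called higher (Trbc1 and Trbc2) and 1 lower (Cd3e). Over all 13691 genes tested, 3.29% were called (1.29% higher and 2.01% lower in ICOS KO), which is 176 and 275 genes. Without ICOS KO replicate 3, WT replicate 1 or WT replicate 2, only 1 member, Trbc1, was called. The median log2 fold change, ICOS KO over WT, was 0.50 over the 6 members and -0.0035 over all genes tested. Genes whose 3 ICOS KO libraries all lay on 1 side of the 3 WT libraries made up 24.4% of those tested, and 4 of the 6 members were such genes. Higher calls were 39.0% of all calls, 28.2% when libraries were scaled by their totals alone and 57.2% when a trend with gene length and GC content was removed, a setting chosen after seeing the data.

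**Figure D1:**
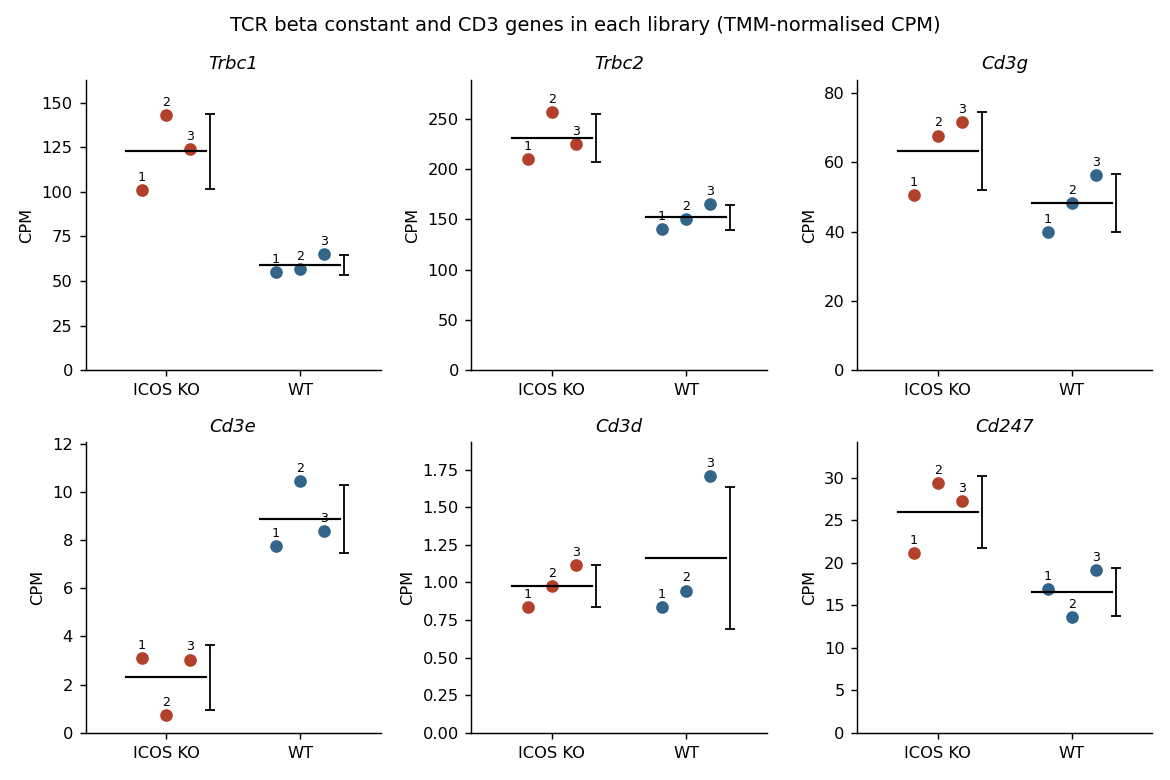
Normalised level of each member in every library, in CPM on axes that start at 0, ICOS KO left of WT. Numbers beside points are replicate numbers, and the black line and bar give the mean and SD of 3 libraries. The ICOS KO points of Trbc1, Trbc2 and Cd247 lie above every WT point, those of Cd3e lie below every WT point, and those of Cd3g and Cd3d overlap with WT.

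Trbc1, a constant gene of the receptor beta chain, was at 101, 143 and 124 CPM in the ICOS KO libraries and at 55.2, 56.6 and 65.2 CPM in the WT libraries. Every ICOS KO library lay above every WT library, a separation in this direction that 11.9% of all tested genes showed. Trbc1 averaged 123 ± 20.9 CPM in ICOS KO and 59.0 ± 5.38 CPM in WT (SD, n = 3 each), 2.08-fold higher, with a log2 fold change of 1.06 ± 0.14 (SE) and an adjusted p of 0.00126 in edgeR's test. Trbc1 kept its call in each alternative setting that gave it a value and with any 1 library left out.

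Trbc2, the second beta constant gene, was at 210, 256 and 225 CPM in the ICOS KO libraries and at 140, 150 and 165 CPM in the WT libraries. The groups did not overlap. Trbc2 averaged 231 ± 23.7 CPM in ICOS KO and 152 ± 12.6 CPM in WT (SD, n = 3 each), with a log2 fold change of 0.60 ± 0.11 (SE) and an adjusted p of 0.0104 in edgeR's test. Once the trend with length and GC was taken out, its log2 fold change was 0.31 with an edgeR adjusted p of 0.0716, and the call was also lost without ICOS KO replicate 3 (0.0501), without WT replicate 1 (0.0759) and without WT replicate 2 (0.0799).

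Summing the pair avoids the uncertain split between them. The sum was 311, 399 and 349 CPM in the ICOS KO libraries and 196, 207 and 230 CPM in the WT libraries, with no overlap. In a fit in which the pair was replaced by its sum, the log2 fold change was 0.74 with an edgeR adjusted p of 0.00358. Trbc1 made up 32.5%, 35.8% and 35.5% of the sum in the ICOS KO libraries and 28.2%, 27.4% and 28.3% in the WT libraries, so the share assigned to Trbc1 was higher in each ICOS KO library.

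The 3 CD3 genes of chromosome 9 lie within 40056 bases, Cd3g (44969572 to 44980431, minus strand), Cd3d (44981786 to 44987339, plus strand) and Cd3e (44998740 to 45009627, minus strand). Cd3g and Cd3d point away from each other across 1354 bases, and Cd3d and Cd3e are 11400 bases apart. Their levels differed widely although they are neighbours.

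Cd3e encodes CD3 epsilon, which pairs with both CD3 delta and CD3 gamma. Cd3e was at 3.10, 0.752 and 3.04 CPM in the ICOS KO libraries and at 7.76, 10.5 and 8.39 CPM in the WT libraries. All ICOS KO libraries lay below all WT libraries, as 12.5% of all tested genes did, and ICOS KO replicate 2 was the lowest. These levels rest on 99 estimated counts over the 3 ICOS KO libraries and 475 over the 3 WT libraries. Cd3e averaged 2.30 ± 1.34 CPM in ICOS KO and 8.87 ± 1.41 CPM in WT (SD, n = 3 each), with a log2 fold change of -1.94 ± 0.42 (SE) and an adjusted p of 0.0281 in edgeR's test. The call was lost without ICOS KO replicate 3 (edgeR adjusted p = 0.0754), WT replicate 1 (0.0790), WT replicate 2 (0.143) or WT replicate 3 (0.0615), and the log2 fold change lay between -2.21 and -1.52 with any 1 library left out. In the annotation Gm48719 overlaps Cd3e on the opposite strand and Gm48720 on the same strand, and without a known strand setting their reads cannot be told apart from those of Cd3e.

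Cd3g encodes CD3 gamma, and it was the most abundant of the 3 chromosome 9 genes. Cd3g was at 50.5, 67.7 and 71.6 CPM in the ICOS KO libraries and at 39.8, 48.3 and 56.4 CPM in the WT libraries. ICOS KO replicates 2 and 3 lay above all WT libraries, but ICOS KO replicate 1 lay below WT replicate 3. The log2 fold change was 0.39 ± 0.16 (SE), with an adjusted p of 0.214 in edgeR's test, and no alternative setting or left-out library gave a call.

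Cd3d, which encodes CD3 delta, was near the lower end of what these libraries resolve. Cd3d was at 0.840, 0.977 and 1.11 CPM in the ICOS KO libraries and at 0.839, 0.947 and 1.70 CPM in the WT libraries, on 41 estimated counts over the ICOS KO libraries and 60 over the WT libraries. The groups overlapped, and the log2 fold change was -0.24 ± 0.52 (SE) with an adjusted p of 0.830 in edgeR's test. Its sign turned without WT replicate 3 (log2 fold change 0.12), so no direction is given for it.

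Within a library, the ratio of these neighbours does not depend on depth. Cd3e reads came to 6.14%, 1.11% and 4.25% of Cd3g reads in the ICOS KO libraries and to 19.5%, 21.7% and 14.9% in the WT libraries. Cd3d reads came to 1.55% ± 0.110 of Cd3g reads in ICOS KO and to 2.36% ± 0.575 in WT (SD, n = 3 each). The Cd3e share of Cd3g was lower in every ICOS KO library than in any WT library.

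The 300 bases around the start of Cd3e, Cd3d and Cd3g (250 before it and 50 after, RefSeq, GRCm38.p6) are shown because these neighbours differed in level and only Cd3e was called. RefSeq promoters matched 4 of the 6 members, these and Cd247. Capitals mark exact matches on either strand, none of which overlap here. For factors of the GATA family the letters searched were AGATAA. For the ETS family they were GGAAGT. For an E-box they were CAGCTG. For the RUNX family they were TGTGGT.
Cd3e, chr9:45009562-45009861, minus strand: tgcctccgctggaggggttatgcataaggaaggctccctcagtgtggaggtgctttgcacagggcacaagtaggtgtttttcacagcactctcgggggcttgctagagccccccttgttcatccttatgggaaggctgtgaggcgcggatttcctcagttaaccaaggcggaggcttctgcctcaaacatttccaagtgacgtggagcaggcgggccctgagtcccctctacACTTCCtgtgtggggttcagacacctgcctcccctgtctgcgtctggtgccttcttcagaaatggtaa
Cd3d, chr9:44981536-44981835, plus strand: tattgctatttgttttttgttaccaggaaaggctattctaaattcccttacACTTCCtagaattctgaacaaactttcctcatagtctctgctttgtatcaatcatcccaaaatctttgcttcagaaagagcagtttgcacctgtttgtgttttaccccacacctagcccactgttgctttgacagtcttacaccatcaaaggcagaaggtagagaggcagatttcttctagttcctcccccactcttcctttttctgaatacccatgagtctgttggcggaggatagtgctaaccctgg
Cd3g, chr9:44980382-44980681, minus strand: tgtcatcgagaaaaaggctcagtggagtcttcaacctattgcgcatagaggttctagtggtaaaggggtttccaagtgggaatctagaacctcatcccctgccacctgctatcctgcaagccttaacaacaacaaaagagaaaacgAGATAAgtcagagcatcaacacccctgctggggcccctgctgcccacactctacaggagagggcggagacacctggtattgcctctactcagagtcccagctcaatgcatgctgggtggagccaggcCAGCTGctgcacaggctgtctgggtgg
Cd3e and Cd3d each held 1 match to the ETS letters, read on the opposite strand as ACTTCC, and Cd247 held 2. Cd3g held none of these and had 1 match to the GATA letters and 1 to the E-box letters. Of 32851 promoters of this length, 23.8% held the ETS letters, 11.2% the GATA letters, 16.3% the E-box letters and 16.8% the RUNX letters, which none of the 4 member promoters held.

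Cd247, on chromosome 1 at 165788681 to 165877277 (plus strand), encodes CD3 zeta, the chain with the most ITAMs in the complex. Cd247 was at 21.2, 29.4 and 27.2 CPM in the ICOS KO libraries and at 16.9, 13.6 and 19.1 CPM in the WT libraries. Every ICOS KO library lay above every WT library, yet the test was not passed, with a log2 fold change of 0.65 ± 0.18 (SE) and an adjusted p of 0.0828 in edgeR's test. DESeq2 gave an adjusted p of 0.0219 for the same counts, limma voom with quality weights gave 0.0309, edgeR gave 0.0349 once the trend with length and GC was taken out, and edgeR gave 0.0290 without ICOS KO replicate 1. The annotation places Pou2f1 on the opposite strand and Gm16565 on the same strand over parts of Cd247, so reads in those parts are uncertain. Icos is on the same chromosome, 104788360 bases away.

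Genes of the table that lie within 100 kb of a member and overlap none were also read. None of the 8 that were tested was called by edgeR, while 2 had an unadjusted p under 0.05, and DESeq2, limma voom and limma voom with quality weights called 0 each. Ephb6, beside Trbc2, encodes an ephrin receptor and averaged 10.6 ± 1.99 CPM in ICOS KO and 12.6 ± 2.39 CPM in WT. Creg1, upstream of Cd247, averaged 127 ± 9.81 CPM in ICOS KO and 119 ± 4.15 CPM in WT (SD, n = 3 each).

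Per length of exon, the beta constant genes stood far above the CD3 genes in both groups. The length used is that of all annotated exons of a gene, 692 bases for Trbc2 and 4080 for Cd3e. A long annotation lowers the value. In ICOS KO, Trbc2 averaged 333 CPM per kilobase, Trbc1 164, Cd3g 19.4, Cd247 4.87, Cd3e 0.563 and Cd3d 0.538. In WT, Trbc2 averaged 219 CPM per kilobase, Trbc1 78.8, Cd3g 14.7, Cd247 3.11, Cd3e 2.17 and Cd3d 0.641. Among the members that follow each other in these orders, Cd3e and Cd3d overlapped in ICOS KO and Cd247 and Cd3e overlapped in WT, while the other neighbours did not. Among the 13571 tested genes with a length, the level of Cd3e per kilobase was at percentile 12.9 in ICOS KO and 33.5 in WT. Trbc2 was at percentile 98.7 in ICOS KO and 98.2 in WT. Cd3d was at percentile 12.3 in ICOS KO and 13.9 in WT.

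**Figure D2:**
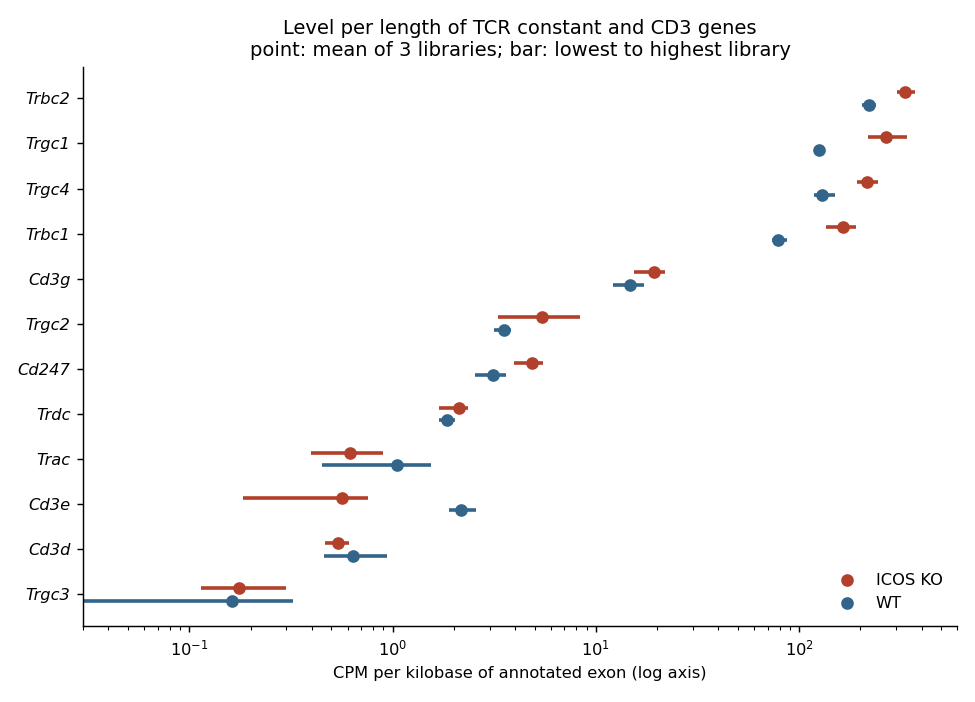
Mean level per kilobase of exon of the members and of the other T cell receptor constant genes, in CPM per kilobase on a log axis, ICOS KO above WT, with bars from the lowest to the highest of 3 libraries. The bar of WT Trgc3 runs to the edge of the axis because 1 WT library had no read; Trbc2 had the highest mean in both groups, 333 in ICOS KO and 219 in WT.

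The other constant genes differed widely in level, with Trgc1 and Trgc4 high, Trgc2 and Trgc3 low and the alpha constant gene near its floor. Of 5 tested, 2 were called higher and 0 lower in ICOS KO, with a median log2 fold change of 0.62. Trgc1, a constant gene of the gamma chain, was at 200, 228 and 313 CPM in the ICOS KO libraries and at 116, 113 and 118 CPM in the WT libraries, with a log2 fold change of 1.09 ± 0.15 (SE) and an edgeR adjusted p of 0.00162. Trgc4, another gamma constant gene, was at 190, 206 and 241 CPM in the ICOS KO libraries and at 118, 117 and 148 CPM in the WT libraries, with a log2 fold change of 0.74 ± 0.13 (SE) and an edgeR adjusted p of 0.00777. In both genes every ICOS KO library lay above every WT library, and the Trgc4 call was lost without ICOS KO replicate 3 (0.0535), WT replicate 1 (0.0544) or WT replicate 2 (0.0663). Trgc1, Trgc2 and Trgc3 are near copies, so the split of reads among them is uncertain.

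Trac, the alpha constant gene, was at 0.840, 0.526 and 0.371 CPM in the ICOS KO libraries and at 1.101, 0.421 and 1.44 CPM in the WT libraries (edgeR adjusted p = 0.543). Its reads came to 0.270%, 0.132% and 0.106% of the reads of Trbc1 and Trbc2 together in the ICOS KO libraries and to 0.563%, 0.204% and 0.626% in the WT libraries. In every library, then, alpha constant reads were under 1% of beta constant reads. Trdc, the delta constant gene, was at 9.11, 6.54 and 8.91 CPM in the ICOS KO libraries and at 7.18, 6.52 and 7.87 CPM in the WT libraries (edgeR adjusted p = 0.680). Trgc2 averaged 4.95 ± 2.41 CPM in ICOS KO and 3.22 ± 0.316 CPM in WT (SD, n = 3 each) and overlapped between the groups (edgeR adjusted p = 0.371). Trgc3, with 5 estimated counts over the ICOS KO libraries and 6 over the WT libraries, was not tested.

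The table also listed 6 variable segments and 0 joining or diversity segments. Reads over these 6 segments came to 66, 65 and 101 in the ICOS KO libraries and to 75, 86 and 93 in the WT libraries. Trdv4, a delta variable segment and the only segment whose mean reached 1 CPM in either group, was at 2.78, 2.78 and 5.79 CPM in the ICOS KO libraries and at 3.30, 3.52 and 3.999 CPM in the WT libraries (edgeR adjusted p = 0.937). Ptcra, the partner of a new beta chain in thymocytes, had 15 estimated counts over the ICOS KO libraries and 13 over the WT libraries and was not tested. Rag1, Rag2 and Dntt, which rearrange receptor genes and add bases at the joins, were not among the deposited genes and have no level here.

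Genes that act just below the receptor mostly did not pass the test. Of 37 listed, 35 were tested, 4 were called higher and 1 lower, with a median log2 fold change of 0.07. Ubash3a, which encodes a regulator of receptor signalling, was at 35.01, 37.1 and 37.6 CPM in the ICOS KO libraries and at 17.4, 18.04 and 16.1 CPM in the WT libraries (log2 fold change 1.09 ± 0.13 SE, edgeR adjusted p = 0.000954). Prkcq, which encodes protein kinase C theta, was at 65.7, 60.9 and 63.7 CPM in the ICOS KO libraries and at 32.7, 35.4 and 33.4 CPM in the WT libraries (log2 fold change 0.91 ± 0.11 SE, edgeR adjusted p = 0.00107). Both kept their calls with any 1 library left out.

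Cd2, an adhesion receptor that binds CD48 in mice, averaged 11.4 ± 1.05 CPM in ICOS KO and 4.81 ± 1.17 CPM in WT (SD, n = 3 each, edgeR adjusted p = 0.0181). Fyb, an adaptor between the receptor and integrins, averaged 69.4 ± 9.83 CPM in ICOS KO and 44.8 ± 0.617 CPM in WT (edgeR adjusted p = 0.0187), and Tespa1, a signalling protein of thymocytes, was lower at 58.7 ± 11.98 CPM in ICOS KO and 91.5 ± 5.65 CPM in WT (edgeR adjusted p = 0.0300). These 3 calls were less stable. That of Cd2 was lost without ICOS KO replicate 2 or 3 or WT replicate 1 or 2 (edgeR adjusted p of 0.0538 to 0.0790), that of Fyb without any library except ICOS KO replicate 1 (0.0516 to 0.105), and that of Tespa1 without ICOS KO replicate 2 or any WT library (0.0743 to 0.138). The list then had 2 calls without ICOS KO replicate 2, WT replicate 1 or WT replicate 2, 3 calls without ICOS KO replicate 3, and 8 calls once the trend with length and GC was taken out. The kinases and adaptors that stand nearest to the ITAMs were not called. Lck averaged 19.7 ± 6.67 CPM in ICOS KO and 15.1 ± 1.82 CPM in WT, Zap70 97.1 ± 6.02 CPM in ICOS KO and 104 ± 11.1 CPM in WT, and Lat 76.0 ± 10.1 CPM in ICOS KO and 71.6 ± 5.19 CPM in WT (SD, n = 3 each). The most abundant genes of the list by the mean of both groups were not called either: Skap1, an adaptor, averaged 817 ± 25.6 CPM in ICOS KO and 705 ± 24.0 CPM in WT, Ptprc, which encodes CD45, 380 ± 48.4 CPM in ICOS KO and 379 ± 8.38 CPM in WT, and Lcp2, which encodes SLP-76, 286 ± 59.1 CPM in ICOS KO and 355 ± 25.3 CPM in WT.

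Of 5 other genes for ITAM and related adaptor chains, 1 was called higher, with a median log2 fold change of 0.09. Cd79b, an ITAM chain of the B cell receptor, averaged 31.9 ± 7.29 CPM in ICOS KO and 19.1 ± 1.76 CPM in WT (SD, n = 3 each, edgeR adjusted p = 0.0466). Its call was lost with library totals alone (0.0662), limma voom (0.0574), no filter (0.0596) and the trend with length and GC taken out (0.0765), and also without ICOS KO replicate 3 (0.199) or any WT library (0.108 to 0.184). Hcst, the most abundant gene of the list, encodes the adaptor DAP10 and averaged 44.8 ± 10.2 CPM in ICOS KO and 30.9 ± 2.02 CPM in WT (edgeR adjusted p = 0.105). Fcer1g, an adaptor of Fc receptors, averaged 16.5 ± 2.14 CPM in ICOS KO and 19.2 ± 3.48 CPM in WT. Of 8 genes for assembly and turnover of the CD3 complex at the surface, edgeR called 0 (1 had an unadjusted p under 0.05), DESeq2 called 1, limma voom 0 and limma voom with quality weights 1. Their median log2 fold change was 0.0036, and the most abundant by the mean of both groups were the chaperone genes Calr and Canx and the lysosomal gene Lamp1, none of them called. Ssr4, which encodes a subunit of the translocon-associated complex, had the unadjusted p under 0.05 and averaged 298 ± 45.02 CPM in ICOS KO and 211 ± 27.5 CPM in WT (edgeR adjusted p = 0.0630). Calr averaged 1399 ± 62.7 CPM in ICOS KO and 1265 ± 47.6 CPM in WT.

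**Figure D3:**
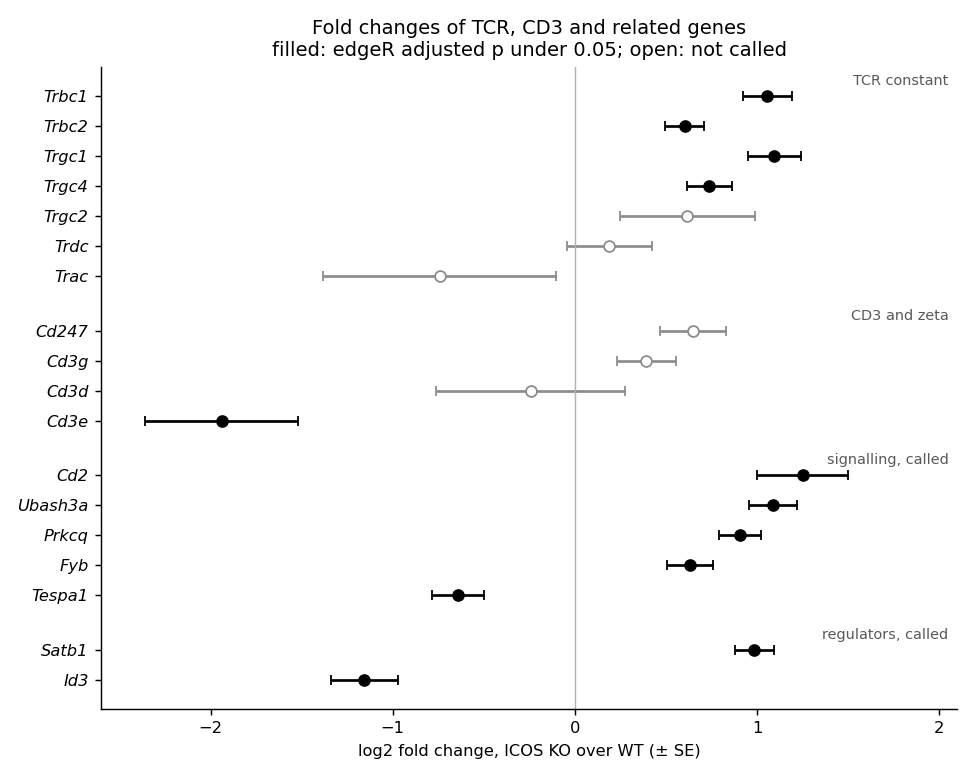
Log2 fold change, ICOS KO over WT, with its SE, for the members, the other constant genes and the called genes of the signalling and regulator lists. Points right of 0 are higher in ICOS KO; Cd3e, at -1.94, lies farthest to the left.

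Among 18 regulators known to act on T cell receptor and CD3 genes in thymocytes and lymphocytes, 1 was called higher and 1 lower, with a median log2 fold change of -0.17. Satb1, which encodes a chromatin organiser of thymocytes, was at 98.7, 89.7 and 96.1 CPM in the ICOS KO libraries and at 51.3, 46.9 and 45.5 CPM in the WT libraries (log2 fold change 0.99 ± 0.11 SE, edgeR adjusted p = 0.000460). Id3, an inhibitor of the E proteins that bind E-boxes, was at 15.1, 23.7 and 19.4 CPM in the ICOS KO libraries and at 35.4, 46.0 and 48.1 CPM in the WT libraries (log2 fold change -1.16 ± 0.18 SE, edgeR adjusted p = 0.00504). Neither gene overlapped between the groups, and both calls held with any 1 library left out. Bcl11b, a T cell and ILC2 commitment factor, averaged 93.1 ± 9.80 CPM in ICOS KO and 116 ± 14.9 CPM in WT (edgeR adjusted p = 0.190), and Ets1 averaged 344 ± 22.0 CPM in ICOS KO and 351 ± 27.3 CPM in WT (edgeR adjusted p = 0.905; SD, n = 3 each). Tcf7, another early factor, averaged 0.815 ± 0.658 CPM in ICOS KO and 2.71 ± 1.24 CPM in WT and was not called (edgeR adjusted p = 0.204).

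Markers of other cells that a sort for ILC2s could retain were read beside the members. In bulk RNA, fewer cells of a type and less RNA per cell cannot be told apart. Reads of Cd4, Cd8a, Cd8b1 and Cd5, which mark alpha-beta T cells, came to 2, 0 and 0 in the ICOS KO libraries and to 6, 52 and 23 in the WT libraries, and Cd8a and Cd8b1 had no read in any ICOS KO library. WT replicate 2, which had the most of these reads, also had the highest Cd3e, and without it the log2 fold change of Cd3e was -1.80. The part of these cells in the lower level of Cd3e was not tested. Cd4, Cd8a, Cd8b1 and Cd5 together were at 0.129, 0 and 0 CPM in the ICOS KO libraries, in which Trbc1 and Trbc2 together were at 311, 399 and 349 CPM. Other alpha-beta T cell markers did not share this drop. Cd6 had 66 estimated counts over the ICOS KO libraries and 68 over the WT libraries. Themis had 45 over the ICOS KO libraries and 21 over the WT libraries (edgeR adjusted p = 0.272). Of the 10 tested markers of that list, 4 had a log2 fold change above 0 and 6 below it.

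**Figure D4:**
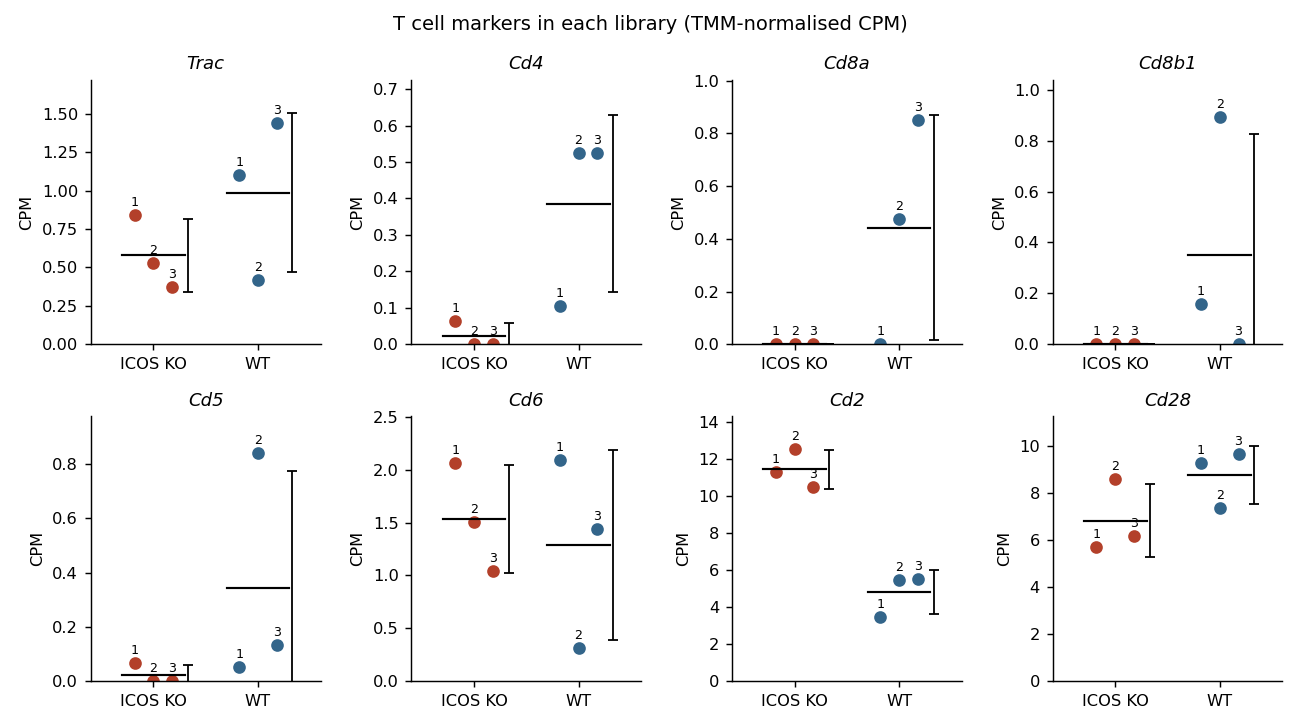
Level of 8 T cell markers (Trac, Cd4, Cd8a, Cd8b1, Cd5, Cd6, Cd2 and Cd28) in every library, in CPM on axes that start at 0, ICOS KO left of WT, with replicate numbers, the mean and the SD of 3 libraries. Cd8a and Cd8b1 are at 0 in all ICOS KO libraries, whereas Cd2 is higher in all ICOS KO libraries than in any WT library.

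Over the whole list of 14 alpha-beta T cell markers, the summed level was 141 to 155 CPM in ICOS KO and 158 to 176 CPM in WT. Of 10 tested, 0 were called higher and 1 lower, with a median log2 fold change of -0.26. That gene was Ccr7, a lymph node homing receptor, at 61.2, 56.4 and 69.6 CPM in the ICOS KO libraries and 98.7, 87.8 and 97.0 CPM in the WT libraries (log2 fold change -0.60 ± 0.11 SE, edgeR adjusted p = 0.0142). Its call was lost without ICOS KO replicate 2 (0.0508) or WT replicate 1 (0.0879). Lef1, a factor of naive T cells, averaged 43.9 ± 5.78 CPM in ICOS KO and 30.4 ± 1.87 CPM in WT (edgeR adjusted p = 0.0614), and Ctla4, an inhibitory receptor, 17.1 ± 1.40 CPM in ICOS KO and 11.05 ± 1.10 CPM in WT (edgeR adjusted p = 0.0748). Foxp3, a regulatory T cell factor that is on the list, averaged 3.48 ± 0.134 CPM in ICOS KO and 4.99 ± 0.325 CPM in WT (edgeR adjusted p = 0.323).

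The list of 12 gamma-delta and innate-like T cell markers includes Trgc1 and Trgc4, which make up most of its sum of 408 to 575 CPM in ICOS KO and 246 to 281 CPM in WT. Of 7 tested, 2 were called higher, these constant genes, and 1 lower, with a median log2 fold change of 0.19. The lower gene was 5830411N06Rik, a scavenger receptor gene of gamma-delta T cells, without a read in the ICOS KO libraries and at 0.734, 0.999 and 1.44 CPM in the WT libraries. Against a floor of 3 reads over the ICOS KO libraries it was at least 15.3-fold lower (edgeR adjusted p = 0.0142), and at least 9.77-fold lower without ICOS KO replicate 1, and its call was lost without ICOS KO replicate 3 or any WT library (0.0565 to 0.0776). Blk, a kinase of B cells and gamma-delta T cells, had no read in any ICOS KO library and was at 0.262, 0.526 and 0.0656 CPM in the WT libraries. Sox13, a transcription factor gene of gamma-delta T cells, went the other way, at 1.74, 0.526 and 1.63 CPM in the ICOS KO libraries and 0.367, 0.158 and 0.0656 CPM in the WT libraries, with every ICOS KO library above every WT library. Blk, Sox13, Zbtb16 (12 estimated counts over the ICOS KO libraries and 31 over the WT libraries) and Il17a (5 over the ICOS KO libraries and 11 over the WT libraries) were too low to be tested.

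Of 6 NK cell markers tested, 1 was called higher and 2 lower, with a median log2 fold change of -1.77. Gzma, a granzyme gene that ILC2s can also express, was at 424, 614 and 685 CPM in the ICOS KO libraries and at 137, 181 and 185 CPM in the WT libraries (edgeR adjusted p = 0.000219). Ncr1, which encodes the NK receptor NKp46, was at 0, 0 and 0.0742 CPM in the ICOS KO libraries and at 1.42, 1.21 and 1.64 CPM in the WT libraries (edgeR adjusted p = 0.00713), and Tbx21 was also lower (edgeR adjusted p = 0.0375). The Tbx21 call was lost without any library except ICOS KO replicate 1 (0.0527 to 0.201) and with no filter (0.0505). The summed list, made up mostly of Gzma, was at 436 to 701 CPM in ICOS KO and 159 to 206 CPM in WT. Klrd1 had no read in any ICOS KO library. After Gzma the most abundant by the mean of both groups were Fcgr3, at 7.64 ± 1.21 CPM in ICOS KO and 11.9 ± 2.63 CPM in WT, and Prf1, at 5.44 ± 1.87 CPM in ICOS KO and 2.91 ± 1.05 CPM in WT, neither of them called.

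Of 9 myeloid and mast cell markers tested, 0 were called higher and 4 lower (Cpa3, Mcpt8, Csf1r and Fcer1a), their median log2 fold change being -0.76 and their sum 95.5 to 128 CPM in ICOS KO and 168 to 234 CPM in WT. Lyz2, Cd68 and Kit, the most abundant of this list by the mean of both groups, were not called. Cpa3, a mast cell protease gene, was at 1.42, 0.451 and 2.52 CPM in the ICOS KO libraries and at 26.1, 25.1 and 31.5 CPM in the WT libraries. The 5 B cell markers summed to 31.9 to 48.0 CPM in ICOS KO and 26.5 to 28.0 CPM in WT, their median log2 fold change was 0.09, and Cd79b was the only call. The other B cell markers were low, Cd79a at 3.74 ± 0.768 CPM in ICOS KO and 3.52 ± 0.224 CPM in WT, and Blnk, a B cell adaptor, at 1.94 ± 0.455 CPM in ICOS KO and 1.43 ± 0.298 CPM in WT. Calls were lost for Csf1r without ICOS KO replicate 3 or WT replicate 1 (edgeR adjusted p of 0.0617 and 0.0824), and for Fcer1a without ICOS KO replicate 3 or any WT library (0.0608 to 0.10004). The part of RNA from these other cell types in the members' levels was not tested.

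Of 18 ILC2 markers, 4 were called higher (Klrg1, Arg1, Areg and Il1rl1) and 2 lower (Icos and Rora), with a median log2 fold change of 0.10. Klrg1, an inhibitory receptor, was at 517, 543 and 612 CPM in the ICOS KO libraries and at 227, 231 and 263 CPM in the WT libraries (log2 fold change 1.21 ± 0.10 SE, edgeR adjusted p = 5.9e-05). Areg, a growth factor of tissue repair, was at 245, 274 and 252 CPM in the ICOS KO libraries and at 86.4, 96.2 and 108 CPM in the WT libraries (log2 fold change 1.41 ± 0.11 SE). Neither overlapped between the groups. Calls were lost for Rora without ICOS KO replicate 3, WT replicate 1 or WT replicate 2 (edgeR adjusted p of 0.0799 to 0.104), and for Il1rl1 without ICOS KO replicate 3 or any WT library (0.0964 to 0.214), with library totals alone (0.101) and with no filter (0.0626). Id2, one of the most abundant markers, averaged 1380 ± 72.5 CPM in ICOS KO and 1411 ± 85.3 CPM in WT. The summed list was at 10770 to 11382 CPM in ICOS KO and 10664 to 11882 CPM in WT, ranges that overlap.

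The genes whose pattern over the 6 libraries was most like that of the members were found by the root mean square difference in log2 level after centring, over 9812 genes at 5 CPM or more in the mean. For Trbc1 and Trbc2 together they were Rom1 (0.0577), Il4 (0.0609) and Hilpda (0.0641). Il4, which encodes interleukin 4, averaged 29.6 CPM in ICOS KO and 17.4 CPM in WT. For Cd3d, Cd3e and Cd3g together, a sum made mostly of Cd3g, they were Tspan4 (0.0276), Ppig (0.0542) and Tax1bp3 (0.0603). For Cd247 they were Cenpk (0.0458), Gpx4-ps2 (0.0653) and Snrpc (0.0680).

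**Figure D5:**
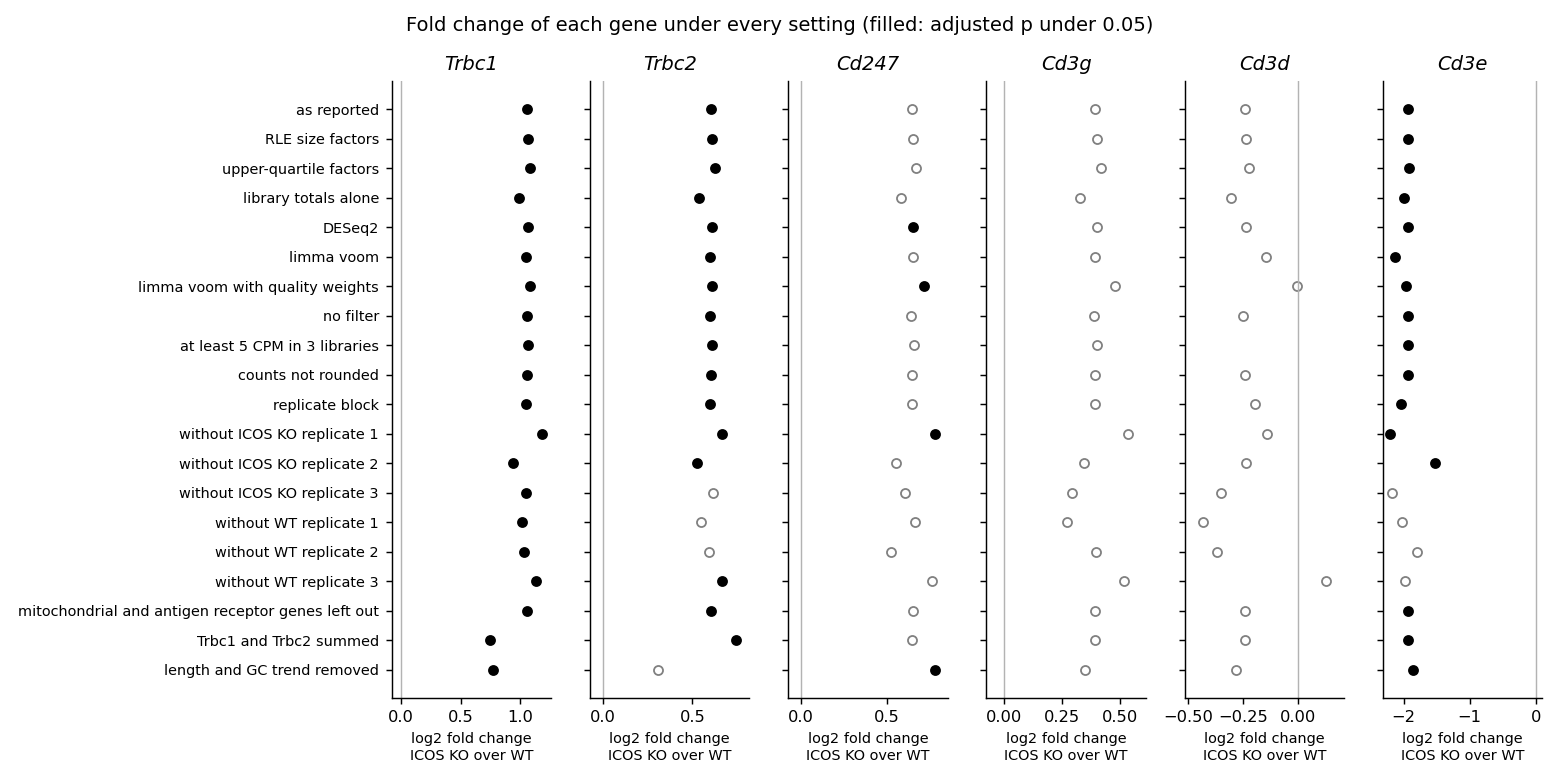
Log2 fold change of each member, ICOS KO over WT, under the processing alternatives and with each library left out. In the setting that sums Trbc1 and Trbc2, the panels of both genes show the value of the sum. Filled points have an adjusted p under 0.05; Trbc1 is filled throughout, and the Cd3d points lie on both sides of 0.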

How the data were processed

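RNA of cultured, sorted lung ILC2s was extracted with a column kit and amplified as cDNA from ultra-low input, per the labels' protocols. Partek 10.0, STAR 2.7.8, DESeq2 and the mm10 build are named in the submitters' processing notes; annotation, counting and strand settings: not given in the sources used here. Per gene, the authors deposited estimated counts, of which 38.9% were not whole numbers, and no gene totalled under 10. The series text speaks of duplicates; 3 libraries per group were analysed.

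Counts were rounded, filtered (filterByExpr), scaled by TMM and compared with edgeR 4.0.16 (R 4.3.3; quasi-likelihood test, ICOS KO over WT, no covariates, Benjamini-Hochberg adjusted p under 0.05), which was tested on simulated data. Libraries held 13738062 to 18736474 estimated counts, so 3 reads in a library stand for 0.160 to 0.218 CPM. SEs were derived from the log2 fold change and its F statistic. Lengths and overlaps came from GENCODE for GRCm38 (17905 of 18122 genes matched, 214 of them through RefSeq synonyms) and sequences from GENCODE transcripts and RefSeq. The text names every member, the other constant genes, each list's called genes, its most abundant genes or defining markers, and genes most like the members in pattern. Alternatives were other scalings, filters, unrounded counts, DESeq2 1.42.0, limma 3.58.1 voom, a 2-fold minimum, a replicate block, left-out gene classes and left-out libraries. The members and lists were chosen with earlier results of these data known.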

Additional observations from a re-analysis of the deposited data

How the results depend on the processing

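Counts of called genes moved most. Against 451 genes in edgeR's test, DESeq2 called 929, limma voom with quality weights 906, the replicate block 784 and a 2-fold minimum 201, and leaving out 1 library gave 193 to 1090. Calls among the members ranged from 1 to 4 with 1 library left out, with 1 call without ICOS KO replicate 3, WT replicate 1 or WT replicate 2. With 1 library left out, log2 fold changes ranged from 0.94 to 1.18 for Trbc1, 0.52 to 0.67 for Trbc2, -2.21 to -1.52 for Cd3e, 0.27 to 0.54 for Cd3g, 0.52 to 0.78 for Cd247 and -0.43 to 0.12 for Cd3d, the last changing sign. With the length and GC trend removed, a setting added after seeing the data, Trbc2 was at 0.31 (edgeR adjusted p = 0.0716) and Cd247 at 0.78 (0.0349). Cd247 was also called by DESeq2 (0.65, adjusted p = 0.0219) and limma voom with quality weights (0.71, 0.0309). The cause of these moves was not tested. Cd3d had no value with a filter of 5 CPM in 3 libraries. Same-numbered libraries deviated together only weakly (r of 0.0643 to 0.0868, each library closest to its own number), so the numbers were not taken as pairs; with the replicate block 3 members were called, as without it. Depth limits Cd3d and Trac, and Cd4, Cd8a, Cd8b1 and Cd5, which rest on few reads.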
